A study of Homo sapiens with 3 samples.

Results

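Alternative splicing regulators are RNA-binding proteins that bind near an exon in a precursor RNA and shift whether that exon is kept or skipped. The expression of 10 genes for such proteins was examined in HCT116 cells, a human colorectal carcinoma line, after knockdown of SMARCA4, the ATPase of SWI/SNF chromatin remodelling complexes. The genes were MBNL1, MBNL2, MBNL3, ESRP1, ESRP2, RBFOX2, CELF1, QKI, PTBP1 and PTBP2, and all 14 of their probes were taken from an array of 58171 probes for 43317 gene names. MBNL2 entered because it stands in a list of genes that the study selected on array results, these included, together with binding data. The 9 other genes were chosen by name, as its relatives and as other splicing regulators, with earlier results of these data known, so that their differences from the control are given as descriptions with no test.

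SMARCA4-KD1 and SMARCA4-KD2 cells were HCT116 cells transfected with small interfering RNA against SMARCA4, for which the labels list 2 sequences, and NC cells were the negative control, described in the study as scrambled. The labels give no other agent or genetic change for the 3 groups, and no time after transfection. Each group was measured on 1 array, so no spread between cultures is known. The sample titles name SMARCA4 and the treatment field of the knockdowns names PRMT1.

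The muscleblind-like proteins MBNL1, MBNL2 and MBNL3 control the switch from fetal to adult splicing in muscle, heart and brain, and their capture by expanded repeat RNA underlies myotonic dystrophy. ESRP1 and ESRP2 maintain the epithelial splicing of transcripts such as those of FGFR2, CD44 and CTNND1, and are typically lost when epithelial cells take on mesenchymal traits. CELF1 often acts against MBNL proteins on the same exons, RBFOX2 and QKI regulate many exons in epithelial and mesenchymal cells, and PTBP1 represses exons that its neuronal relative PTBP2 in part allows.

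The arrays carried 62976 spots in 1 colour, and 45.7% to 47.3% of the probes were called well above background by the extraction software. Values are processed signals in intensity units, and log2 differences from NC were taken after each signal was divided by the 75th percentile of its array. The SMARCA4 probe had a signal of 14026 for NC, 3960 for SMARCA4-KD1 and 4129 for SMARCA4-KD2, and PRMT1 differed from NC by 0.27 and 0.37 on the log2 scale, so that of both genes named in the labels SMARCA4 was the one with a lower level in the knockdowns. The knockdowns shared slide 1 while NC was on slide 2, and slide and knockdown cannot be told apart. The 8 spike-in controls well above background on all arrays differed from NC by a mean of -0.30 on the log2 scale for SMARCA4-KD1 and of -0.32 for SMARCA4-KD2, so that scaling on them raises every difference below by these amounts. All 7 markers of epithelial cells were well above background on every array, with summed levels of 1942 and 1965 in the knockdowns and 2023 in NC in units of the 75th percentile. Of the markers of fibroblasts, 1 of 6 was above background on any array, and of the 5 listed for leukocytes, 3 had a probe by that name and 2 were above background.

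Of the 14 probes, 13 were well above background on all arrays, and the remaining one, for QKI, was so in both knockdowns but not in NC. The limit of 1.5-fold is that of the study's methods, which also ask for a p value, and no p value was used here. At 1.5-fold, 1 of the 14 probes was lower in SMARCA4-KD1, where 12.1% of the 29319 other probes kept were lower, and 3 were lower in SMARCA4-KD2, where 9.80% were. Since MBNL2 was chosen from a list that rests in part on these arrays, nothing is read from these counts, and without its probes 0 and 1 of the 12 others were lower. Higher by as much in each knockdown was 1 probe, beside 11.5% of the other probes in SMARCA4-KD1 and 10.2% in SMARCA4-KD2. In both knockdowns, the second MBNL2 probe described below was lower and the ESRP2 probe was higher, and of the other probes 7.97% were lower and 6.58% higher in both. The median difference of the 14 probes was 0.05 for SMARCA4-KD1 and -0.07 for SMARCA4-KD2, beside 0.00 and 0.02 over all 29333 probes kept, and with scaling on the spike-ins both medians were positive, at 0.36 and 0.25. Without MBNL2 and the dim QKI probe, 5 of 11 probes were below NC in both knockdowns and 4 above it in both, and of all probes kept 39.3% and 41.2% were.

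**Figure D1:**
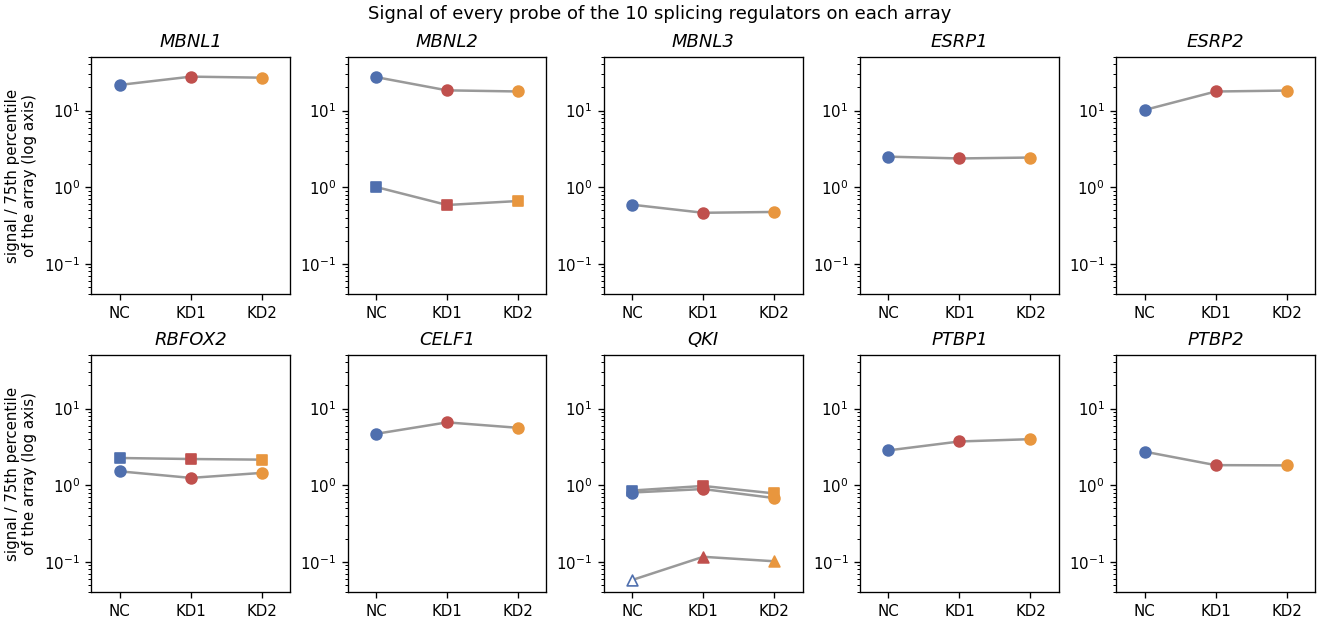
Signal of each probe divided by the 75th percentile of its array (log axis) in NC (blue), SMARCA4-KD1 (red) and SMARCA4-KD2 (orange), with 1 panel per gene, 1 line per probe and 1 array per point. Points are to be compared along a line and not between probes. The MBNL2 and PTBP2 lines go down and the ESRP2 line goes up in both knockdowns, and the open triangle marks the QKI probe that was not well above background in NC.

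Both MBNL2 probes were lower than NC in both knockdowns. MBNL2 was chosen from a list that rests in part on these arrays. Nothing is therefore read from its direction, from the size of its differences or from its rank among all probes. The first MBNL2 probe, on chromosome 13 of hg19 from 98046226 to 98046285 on the plus strand, had a signal of 6107 for NC, 4347 for SMARCA4-KD1 and 4055 for SMARCA4-KD2. Both knockdown arrays were below the NC array and close to each other. The log2 differences were -0.57 and -0.62, which is 67.2% and 64.9% of the NC level, so that the 1.5-fold limit was passed in SMARCA4-KD2 and narrowly missed in SMARCA4-KD1. The second probe, from 97999137 to 97999196, had signals of 225 for NC, 139 for SMARCA4-KD1 and 151 for SMARCA4-KD2. Here too NC was highest, and the log2 differences of -0.78 and -0.61, or 58.2% and 65.6% of NC, both passed 1.5-fold. With normexp background correction or scaling on the spike-ins neither probe passed 1.5-fold in both knockdowns, though both stayed below NC, and in 3 other alternatives the first probe passed in both as well. The extraction software gave each of these differences an error of 0.20 to 0.21 on the log2 scale, so that the limit of 0.585 lies within the error of all 4 values. From end to end the probes span 47149 bases of the genome. Their mean differences were 0.10 apart, a range that was smaller in 20.8% of the 5173 genes with more than 1 probe. Of all probes kept, 9.97% and 7.42% had a mean difference at or below those of the first and the second MBNL2 probe.

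MBNL3, an X-linked relative that is mostly known from early muscle and placenta, had signals of 132 for NC, 110 for SMARCA4-KD1 and 109 for SMARCA4-KD2 for its probe on chromosome X from 131516236 to 131516295 on the minus strand. Both knockdowns were lower than NC, at 78.5% and 80.5% of it. The log2 differences of -0.35 and -0.31 did not reach 1.5-fold, and with scaling on the spike-ins they were -0.05 and 0.00. MBNL1, the most widely expressed of the muscleblind-like genes, lay on the other side of NC. Its probe, on chromosome 3 from 152182837 to 152182896, had a signal of 4830 for NC, 6564 for SMARCA4-KD1 and 6137 for SMARCA4-KD2. Both knockdowns were higher, at 128% and 124% of NC, and the log2 differences of 0.36 and 0.31 did not reach 1.5-fold. With scaling on the spike-ins they were 0.66 and 0.63, past 1.5-fold in both knockdowns. The probes of MBNL2 and MBNL1 thus differed from NC in opposite directions under every scaling tried, while MBNL3 in SMARCA4-KD2 came to 0.00 with the spike-ins.

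The second MBNL2 probe starts at base 1459 of its transcript, whereas the first starts at base 4579. Its sequence and that of the MBNL3 probe, which starts at base 1079, are shown because these are the muscleblind-like probes nearest to a transcript start, each 60 bases long and given 5′ to 3′ as in the array files. The annotation used does not place probes in exons or untranslated regions.
MBNL2: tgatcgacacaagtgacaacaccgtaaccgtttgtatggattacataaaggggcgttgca
MBNL3: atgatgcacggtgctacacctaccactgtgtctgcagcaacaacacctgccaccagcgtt

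Among the 13 probes well above background on all arrays, ESRP2 had the largest difference in both knockdowns, and its paralogue ESRP1 had one of the smallest. In SMARCA4-KD1 the second MBNL2 probe came close to ESRP2 in size, at -0.78. That probe was further from NC than ESRP2 there with the percentile over probes well above background, quantile normalization or the intensity trend taken out. The ESRP2 probe, on chromosome 16 from 68263054 to 68263113 on the minus strand, had a mean signal of 2273 for NC, 4201 for SMARCA4-KD1 and 4166 for SMARCA4-KD2. This was the one regulator printed as 10 repeated spots on each array, of which 9 were used in SMARCA4-KD1 because 1 was flagged by the software. The spots ran from 4057 over a median of 4214 to 4305 in SMARCA4-KD1, from 4072 over 4143 to 4381 in SMARCA4-KD2 and from 2221 over 2253 to 2356 in NC. The SD between spots of 1 array was 0.03 on the log2 scale in all 3 groups. Over all repeated probes well above background the median of this SD was 0.03 to 0.04. With spots so alike, a small shift between arrays parts them, so nothing is read from the gap between the spots of NC and the knockdowns. Repeated spots share their RNA, so their spread says nothing of the spread between cultures. The log2 differences from NC were 0.80 and 0.84, or 1.74-fold and 1.79-fold higher, and 95.5% of all probes had a mean difference at or below that of ESRP2. It passed 1.5-fold in both knockdowns in all 9 alternative scalings, corrections and filters.

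**Figure D2:**
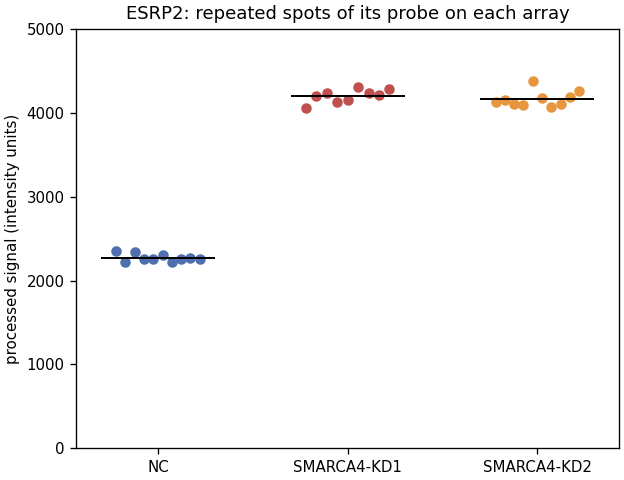
Processed signal (intensity units, axis from 0) of each repeated spot of the ESRP2 probe in NC, SMARCA4-KD1 and SMARCA4-KD2, with 1 point per spot and a bar at the mean of the array. The signals are not scaled between arrays, and the spots of 1 array share their RNA, with 1 array per group.

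For ESRP1 the signals were 559 for NC, 562 for SMARCA4-KD1 and 557 for SMARCA4-KD2, from a probe on chromosome 8 between 95680359 and 95680418. The 3 arrays hardly differed, and the log2 differences after scaling, -0.08 and -0.04, were smaller than their error of 0.20. Scaling on the spike-ins turned them to 0.22 and 0.28. Epithelial markers lay on both sides of NC beside ESRP2. Of the 7 markers, CLDN7 differed by 0.79 and 0.72, CLDN4 by -0.67 and -0.68, and the other 5 stayed within 1.5-fold of NC in both knockdowns. Of all genes, 6.36% were at least 1.5-fold higher and 8.02% lower in both. With scaling on the spike-ins CLDN4 no longer passes 1.5-fold. In RNA from a whole culture, fewer cells of a type and less RNA per cell cannot be told apart, and the part of these markers in the ESRP2 difference was not tested.

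Upstream of the ESRP genes, 7 transcription factors known to act on them or on the epithelial state were read by their brightest probe, and 6 were above background on any array. OVOL2, a repressor of mesenchymal genes, had signals of 192 for NC, 95.6 for SMARCA4-KD1 and 115.7 for SMARCA4-KD2. It was the single factor past 1.5-fold in both knockdowns, with log2 differences of -1.09 and -0.76, and no factor was higher in both. With normexp background correction or scaling on the spike-ins no factor passed 1.5-fold below NC in both. By the same measure, 8.02% of 22619 genes lay at least 1.5-fold below NC in both knockdowns and 6.36% lay above it. ZEB1, the repressor of both ESRP genes, is named here after its values were seen, and differed by -0.16 and -0.12. The list's medians were -0.09 and -0.08, with 4 factors below NC in both knockdowns and 2 above it in both, where 39.3% and 41.2% of all genes were. The 2 above NC, also named after their values were seen, were OVOL1, with 0.51 and 0.40, and SNAI1, with 0.42 and 0.27. Beside OVOL2 and ZEB1, those below NC were SNAI2, with -0.33 and -0.38, and GRHL2, with -0.02 and -0.05, named likewise. With scaling on the spike-ins ZEB1 and GRHL2 lie above NC in both knockdowns.

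PTBP1 and PTBP2 differed from NC in opposite directions, in each scaling tried. PTBP1, the widely expressed repressor, had signals of 636 for NC, 881 for SMARCA4-KD1 and 911 for SMARCA4-KD2 for its probe on chromosome 19 from 811523 to 811582. Both knockdowns were higher, at 131% and 140% of NC, with log2 differences of 0.39 and 0.49 that did not reach 1.5-fold. With scaling on the spike-ins they were 0.69 and 0.80, past it in both. PTBP2, which takes over from PTBP1 as neurons differentiate, had signals of 612 for NC, 433 for SMARCA4-KD1 and 415 for SMARCA4-KD2 for its probe on chromosome 1 from 97279985 to 97280044. Both knockdowns were lower, at 66.7% and 66.2% of NC. The log2 difference of -0.594 in SMARCA4-KD2 passed the 1.5-fold limit of 0.585. That of -0.584 in SMARCA4-KD1 fell just short of it, and the error was 0.20 on each. Under 3 other settings PTBP2 passed in both knockdowns, and with normexp background correction or the spike-ins in neither. All 4 neuron markers read beside it were above background and below NC in both knockdowns, beside 39.3% of all genes below it. Their summed levels were 48.7 and 46.8 in the knockdowns against 55.9 in NC. TUBB3 hardly differed, with log2 differences of -0.003 and -0.05, and lies above NC in both with scaling on the spike-ins. SNAP25 differed by -0.57 and -0.19 and RBFOX3 by -0.26 and -0.63. With the spike-ins SNAP25 in SMARCA4-KD2 and RBFOX3 in SMARCA4-KD1 also lie above NC, and of the 4 only SYT1 stays below it in both knockdowns. SYT1 was furthest from NC among the 4, with log2 differences of -1.69 and -1.76, and all 4 are named here after their values were seen. The part of these genes in the PTBP2 difference was not tested.

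**Figure D3:**
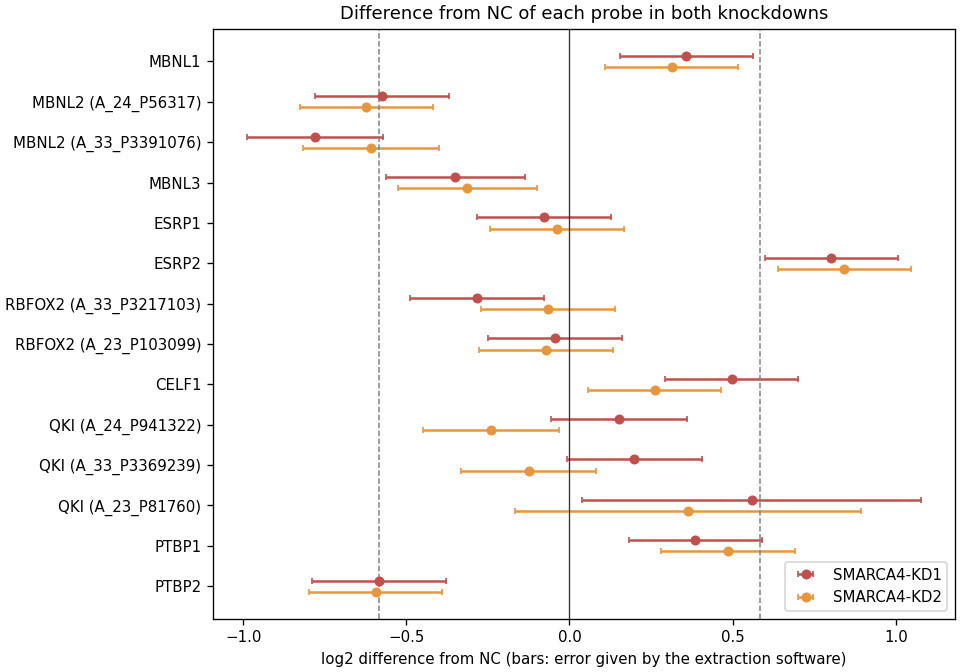
Log2 difference from NC (horizontal axis) of each probe in SMARCA4-KD1 (red) and SMARCA4-KD2 (orange), with bars for the error of a difference given by the extraction software and dashed lines at 1.5-fold. Scaling on the spike-ins moves all red points by 0.30 and all orange points by 0.32 to the right, and then ESRP1, RBFOX2 and some QKI and MBNL3 points change sides of 0.

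CELF1, which binds GU-rich RNA, was higher in both knockdowns. Its probe on chromosome 11 from 47490178 to 47490237 had signals of 1046 for NC, 1565 for SMARCA4-KD1 and 1281 for SMARCA4-KD2. The knockdowns stood at 141% and 120% of NC, with log2 differences of 0.50 and 0.26 that did not reach 1.5-fold. With scaling on the spike-ins they were 0.80 and 0.58, past it in SMARCA4-KD1. Both knockdown arrays were 0.24 apart, nearly as far as SMARCA4-KD2 was from NC.

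RBFOX2 stayed near NC by both of its probes. The first, on chromosome 22 from 36140030 to 36140089, had signals of 339 for NC, 295 for SMARCA4-KD1 and 331 for SMARCA4-KD2, and log2 differences of -0.28 and -0.07. The second runs from 36164377 to 36174111, spans 9735 bases of the genome and so crosses an intron, and had signals of 506, 520 and 492 in the same order, with log2 differences of -0.04 and -0.07. Both probes were slightly below NC in both knockdowns, turning above it with scaling on the spike-ins, and the second also with normexp background correction. Their mean differences were 0.12 apart, with a median of 0.27 over genes with more than 1 probe.

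QKI, a regulator of exon inclusion and of circular RNA formation, was the gene with the widest gaps between both knockdowns. The first QKI probe, on chromosome 6 from 163994506 to 163994565, had signals of 179 for NC, 211 for SMARCA4-KD1 and 155 for SMARCA4-KD2. The second, from 163836292 to 163836351, had 190, 232 and 179 in the same order. For both, SMARCA4-KD1 was above NC and SMARCA4-KD2 below it, with log2 differences of 0.15 and -0.24 for the first and of 0.20 and -0.13 for the second. With scaling on the spike-ins all 4 were above 0. The third probe, from 163956097 to 163956156, had dim signals of 13.0 for NC, 27.6 for SMARCA4-KD1 and 23.2 for SMARCA4-KD2, of which that of NC was not well above background. It was at least 1.47-fold higher in SMARCA4-KD1 and at least 1.29-fold higher in SMARCA4-KD2 than NC, as limits that hold for this background correction and are set by the lowest signal well above background on the NC array, and its error of 0.52 to 0.53 was the widest of the 14 probes. With normexp background correction, which handles dim signals in another way, its differences were 0.24 and 0.17 on the log2 scale and so below these limits. The mean differences of the first and the second probe were 0.08 apart, and that of the third is known only as a limit. All 3 QKI probes were higher in SMARCA4-KD1 than in SMARCA4-KD2, by 0.39, 0.32 and 0.19 on the log2 scale.

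The QKI probes start, in the order above, at bases 4340, 617 and 1036 of their transcripts, and their positions span 158274 bases of the genome. The second and the third are printed so that they can be placed on the transcripts of QKI, and the second RBFOX2 probe, from base 775, because it joins sequence from both sides of an intron.
QKI, the second probe: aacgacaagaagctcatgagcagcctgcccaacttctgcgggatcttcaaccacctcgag
QKI, the third probe: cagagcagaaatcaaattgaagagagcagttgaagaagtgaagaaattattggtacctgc
RBFOX2, the second probe: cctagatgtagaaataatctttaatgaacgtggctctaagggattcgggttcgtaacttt

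Both knockdown arrays gave like values for most of the regulators. The difference between SMARCA4-KD1 and SMARCA4-KD2 had a median size of 0.07 over the 14 probes and reached 0.39 in QKI, beside a median of 0.14 over all probes. None of the 14 was 1.5-fold apart between the knockdowns, as 6.32% of all probes were. All probes kept include dim ones, whereas 13 of the 14 were well above background on all arrays. Nothing is therefore read from either comparison. Both differences use the same NC array, so a deviation of that array would move both in the same direction.

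**Figure D4:**
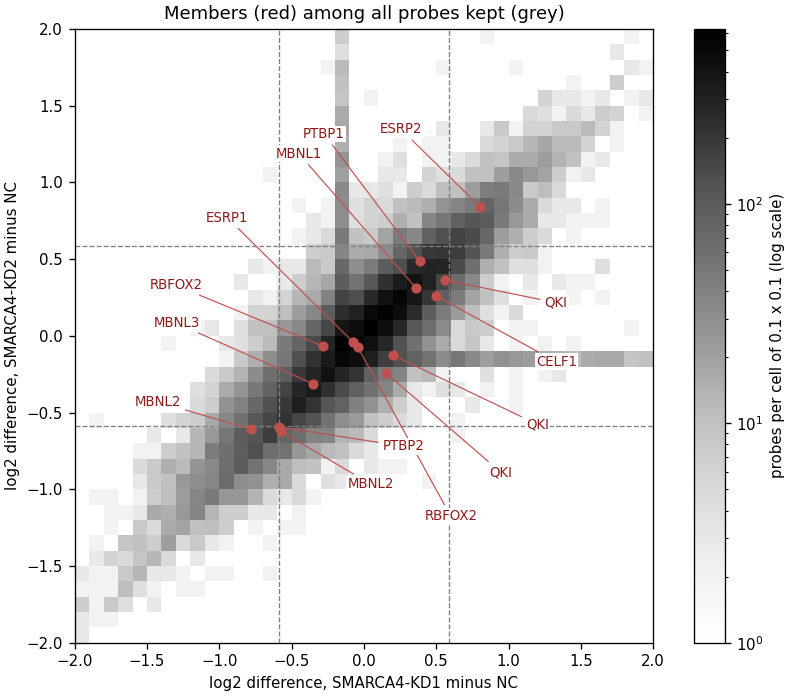
Log2 difference from NC in SMARCA4-KD1 (horizontal) and SMARCA4-KD2 (vertical) for the 14 probes of the regulators (red, by gene) over the number of all kept probes per cell (grey, log scale), cropped to 2 on either side of 0, with dashed lines at 1.5-fold. ESRP2 lies past the upper lines and 1 MBNL2 probe past the lower ones, within the cloud of all probes, and the straight grey bands are probes not well above background in NC and in 1 knockdown.

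Of 28 other regulators of alternative splicing, among them further RBFOX, CELF, NOVA, RBM, ELAVL and KHDRBS proteins, 18 were above background on any array. None was 1.5-fold lower or higher in both knockdowns, beside 8.02% and 6.36% of all genes, and with scaling on the spike-ins 2 were higher in both. Below NC in both were 6 and above it in both 7, and over all genes 39.3% and 41.2%. Their differences ran from -0.47 to 0.53 in SMARCA4-KD1 and from -0.63 to 0.41 in SMARCA4-KD2, with medians of 0.02 and 0.05. Downstream, of 18 genes with exons known to be regulated by these proteins, 17 were above background on any array and 16 on all. Of these 16, 10 were below NC in both knockdowns and 5 above it in both, again beside 39.3% and 41.2% of all genes. ATP2A1, the calcium pump of fast muscle and a known target of MBNL1, was the single one 1.5-fold lower in both, as 8.02% of all genes were, with dim signals of 44.9 for NC, 22.6 for SMARCA4-KD1 and 27.3 for SMARCA4-KD2 and log2 differences of -1.07 and -0.75. No gene of that list was higher in both by this measure. The medians of the 17 were -0.21 and -0.16, and with normexp background correction or scaling on the spike-ins none of its genes was lower in both, while with the spike-ins 4 were higher in both. The array reads each of these genes by its brightest probe, so the inclusion of their regulated exons was not measured.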

How the data were processed

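Scanner output was deposited for each array, in which the authors had used Agilent Feature Extraction 10.7.1.1 to read spot intensity, subtract background and remove spatial trends, and arrays were not normalized to each other. A deposited series table of intensity equalled these signals within 0.1% for all but 1 of 57901 probes with 1 spot. Deposited flags of 0 or 1 for outliers and background were used as given. Control spots and outlier spots were left out, repeated spots were averaged on the log2 scale, and the 75th percentile of each array was subtracted. Dim values, not well above background, were raised to the array's lowest value that was, if they lay under it, and the 29333 probes not dim on every array were kept. Errors are those the software gives each spot, and precision is limited by having 1 array per group. Gene names and hg19 positions are those of the array files, and for all 14 probes the accession has the same symbol in RefSeq (GRCh38.p14 table).

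The members and lists were chosen with earlier results of these data known. Named were every member, SMARCA4, PRMT1, and companion genes at least 1.5-fold from NC in both knockdowns in the same direction. ZEB1, OVOL1, SNAI1, SNAI2, GRHL2, COL1A1, SYT1, SNAP25, RBFOX3, TUBB3, CLDN4 and CLDN7 were named outside this rule after their values were seen. The companion and marker lists were read by the brightest probe of each gene. Leukocyte markers above background had medians of 0.02 and -0.24 in SMARCA4-KD1 and SMARCA4-KD2, and the fibroblast marker COL1A1 had 0.37 and 0.12. Alternatives were other scalings (the percentile over probes well above background, quantile, spike-ins), removal of the intensity trend, normexp with an offset of 50, the series table, other filters, no floor, 2-fold, and another unit counted. Python 3.11.15, numpy 2.4.6, pandas 2.3.3, statsmodels 0.14.6 and matplotlib 3.10.9 were used, with R 4.3.3 and limma 3.58.1 for normexp. The steps were tested on simulated data.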

Additional observations from a re-analysis of the deposited data

How the results depend on the processing

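With 1 array per condition and 1 spot for most probes, the alternatives vary only the processing. No paired analysis was possible because each group has 1 array. The single NC array enters every difference, and its slide and its group cannot be told apart. The 28 log2 differences of the 14 probes kept their direction under 7 of 9 alternatives (26 differences where all arrays had to be above background), in 26 of 28 with normexp and in 19 of 28 with the spike-ins.

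At 1.5-fold, the count of regulator probes lower in SMARCA4-KD1 and in both knockdowns was 3 instead of 1 with the percentile over probes well above background, with quantile normalization and with the intensity trend taken out, because the first MBNL2 probe and PTBP2 then passed in both. Taking out the trend also gave 2 higher probes in SMARCA4-KD1. With scaling on the spike-ins no probe was lower in SMARCA4-KD1, SMARCA4-KD2 or both (0), 5, 4 and 4 were higher, and the medians were 0.36 and 0.25. The 4 higher in both were MBNL1, ESRP2, PTBP1 and the third QKI probe. With normexp 0 were lower in either or both, as the MBNL2 differences were -0.51 and -0.57 for the first probe and -0.48 and -0.36 for the second. Without a floor, and with the series table, 2 probes were higher in each knockdown and in both, since the dim QKI probe then differed by 1.01 and 0.81, beside 0.24 and 0.17 with normexp. At 2-fold every one of these counts was 0, and by the brightest probe of each gene 0 were lower in SMARCA4-KD1 and in both. The median in SMARCA4-KD1 was -0.0041 with the percentile over probes well above background and -0.044 with a filter on all arrays. MBNL2 by its second probe was lower in both in 7 of 9 alternatives and ESRP2 higher in both in 9 of 9.

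Of the genes with regulated exons, 3 were lower in both with the percentile over probes well above background and with the trend taken out, 2 with quantile normalization, the series table and no floor, and 0 with the spike-ins, normexp and 2-fold. With the spike-ins 4 of them were higher in both, and 1 was when every probe was counted. Of the factors acting on ESRP genes, 0 were lower in both with the spike-ins, normexp and 2-fold, and 2 were higher in both with the spike-ins, as were 2 of the other splicing regulators. The cause of these shifts was not tested. Without a filter the median of all probes moved by -0.15 and -0.16, as values raised to the background limit are lower in the knockdowns than in NC.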
